A study of Mus musculus with 14 samples.

Results

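AMP-activated protein kinase (AMPK) is encoded in the mouse by 7 genes, and all 7 were found by symbol among the 24421 genes of each table: Prkaa1 and Prkaa2 for the catalytic alpha subunit, Prkab1 and Prkab2 for the beta subunit, and Prkag1, Prkag2 and Prkag3 for the gamma subunit. The family was chosen by the measured level of Prkaa2, which is higher in a brown fat cell line under blebbistatin than under vehicle, so the values of the 7 genes in those cells are given as a description and without a test. The comparison of brown with white fat was not used in that choice.

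AMPK is an energy sensor that works as a heterotrimer of an alpha, a beta and a gamma subunit. The alpha subunit carries the kinase domain and is switched on by phosphorylation of its activation loop, mainly by LKB1. The beta subunit is the scaffold and binds glycogen, and the gamma subunit binds AMP, ADP and ATP. In fat cells the active kinase phosphorylates enzymes of fatty acid synthesis and lipolysis. Prkaa2, Prkab2 and Prkag3 encode the isoforms that are typical of skeletal muscle, and Prkag3 is known chiefly from that tissue.

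Polyadenylated RNA of 14 mouse samples was sequenced. Brown adipose tissue (BAT), which makes heat, and perigonadal white adipose tissue (WAT), which stores fat, gave 4 libraries each, from C57BL/6N mice of 22 weeks kept for 14 weeks on a high-fat diet (60% of energy). The other 6 libraries came from a single BAT cell line that had been differentiated with insulin, T3, dexamethasone and IBMX (rosiglitazone is named for beige cells) and was given, at day 7, either DMSO as vehicle or 100 µM blebbistatin, an inhibitor of myosin II motors, for 24 h, with 3 libraries per condition. The labels give no genotype, no sex of the mice and no origin of the line, and do not say that replicates were separate animals or cultures, so p-values refer to the spread between the samples as sequenced, part of which may be technical.

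Reads in genes numbered 6859404 to 16091372 per WAT library and 1014959 to 2335058 per BAT library, or 71.1 to 83.0% and 19.1 to 42.3% of the mapped reads. The cell libraries held 10685378 to 14176846 reads in genes. Levels are therefore given as CPM, read counts relative to all reads in genes after TMM scaling, and differences are on the scale of log2(CPM + 0.5). Relative to all mapped reads and exon length (RPKM) the median gene was lower in BAT by 1.51 on the log2 scale, against -0.10 in CPM, and the members whose direction turns on this choice are named as such. The tissue labels fitted their markers. The summed CPM of 8 brown fat markers was 18.0 to 28.9 in WAT and 18100 to 27700 in BAT, and that of 6 white fat markers was 1900 to 4300 in WAT and 286 to 466 in BAT. Markers of other cells also differed. The sum of 10 macrophage markers was 13000 to 19200 in WAT and 469 to 1230 in BAT, and that of 7 endothelial markers was 317 to 413 in WAT and 1140 to 1420 in BAT. The sum of 14 skeletal muscle markers was 30.0 to 48.1 in WAT and 2904, 5410, 2801 and 38400 in BAT 1 to 4. In tissue, a change in the number of cells of a type and a change in RNA per cell cannot be told apart.

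The study compared gene expression in BAT with that in perigonadal WAT, and the subunit classes differed in how they separated the tissues. Of the 7 subunit genes, 4 rose and 1 fell in BAT against WAT (limma, Benjamini-Hochberg adjusted p under 0.05 over 12754 genes), and 2 did not pass the test. Among all genes tested, 29.4% were called higher and 33.3% lower. Prkaa2, Prkab1, Prkag1 and Prkag2 were the genes that rose, and Prkaa1 was the gene that fell. The called members did not overlap between the tissues in any library, whereas Prkab2 and Prkag3 did. The share of all genes without overlap was not determined, so this is a description only. In the authors' deposited table the same 5 genes had an adjusted p under 0.05, with the same directions.

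**Figure D1:**
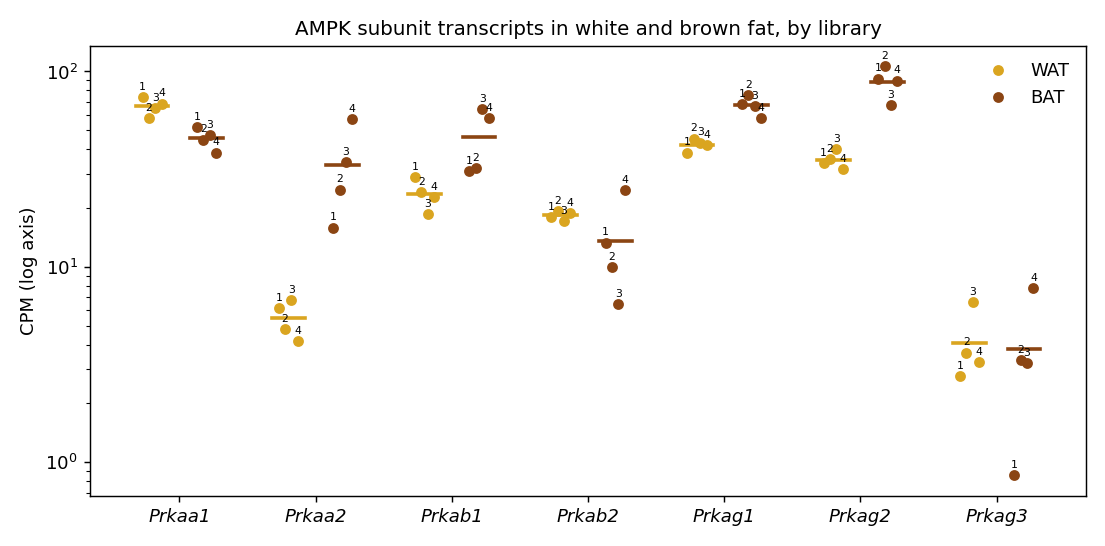
CPM of the 7 subunit genes on a log axis in the 4 WAT and 4 BAT libraries. Points are libraries, numbered by replicate, and lines are group means. The Prkaa2 points of BAT, 15.9 to 57.3 CPM, lie above all WAT points, 4.16 to 6.73 CPM, while the Prkaa1 points lie in the opposite order.

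The catalytic subunits moved in opposite directions. Prkaa1, the alpha isoform found in most tissues, was at 74.0, 57.9, 65.2 and 68.5 CPM in WAT 1 to 4 and at 52.0, 44.8, 47.1 and 38.4 CPM in BAT 1 to 4. Every BAT library lay below every WAT library, and Prkaa1 fell by 0.54 on the log2 scale (SE 0.14, limma adjusted p 0.005125). Prkaa2, the alpha isoform typical of muscle, was at 6.13, 4.81, 6.73 and 4.16 CPM in WAT and at 15.9, 24.9, 34.2 and 57.3 CPM in BAT. Every BAT library lay above every WAT library, by a group difference of 2.36 (SE 0.33, limma adjusted p 5.3e-05), which is a 5.15-fold higher level. On the RPKM scale the Prkaa2 difference was 0.87 (limma adjusted p 0.03083) and that of Prkaa1 was -1.99 (limma adjusted p 1.1e-05). The Prkaa2 ranges then met closely, at up to 0.724 RPKM in WAT and from 0.734 RPKM in BAT. The reads behind these values were 41 to 104 per WAT library and 32 to 88 per BAT library. BAT 4 held both the highest Prkaa2 level and the highest sum of muscle markers. BAT 3 held the lowest muscle sum of the BAT libraries and more Prkaa2 than BAT 1 and BAT 2. Without BAT 4 the Prkaa2 difference was 2.06 and remained called, with 3 libraries that still carried 2801 to 5410 CPM of muscle markers. The part of muscle RNA in the Prkaa2 difference was not tested.

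On the scale of reads per length, which allows genes to be compared within a library, Prkaa2 made up 4.49, 4.50, 5.53 and 3.33% of alpha subunit RPKM in WAT and 14.8, 24.0, 29.2 and 45.8% in BAT. The mean share was 4.46% ± 0.90 (SD, n = 4) in WAT and 28.4% ± 13.0 (SD, n = 4) in BAT, and Prkaa1 made up the rest. The groups did not overlap, and BAT 4, the library richest in muscle markers, again stood highest. BAT 3, the BAT library poorest in them, stood next. The summed alpha level was 15.0 ± 1.49 CPM per kb (SD, n = 4) in WAT and 13.9 ± 1.17 CPM per kb (SD, n = 4) in BAT, with overlapping libraries. In RPKM the same sum did not overlap, at 11.3 to 13.1 in WAT and 2.51 to 5.24 in BAT, so that whether the alpha total differed depended on the scale.

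**Figure D2:**
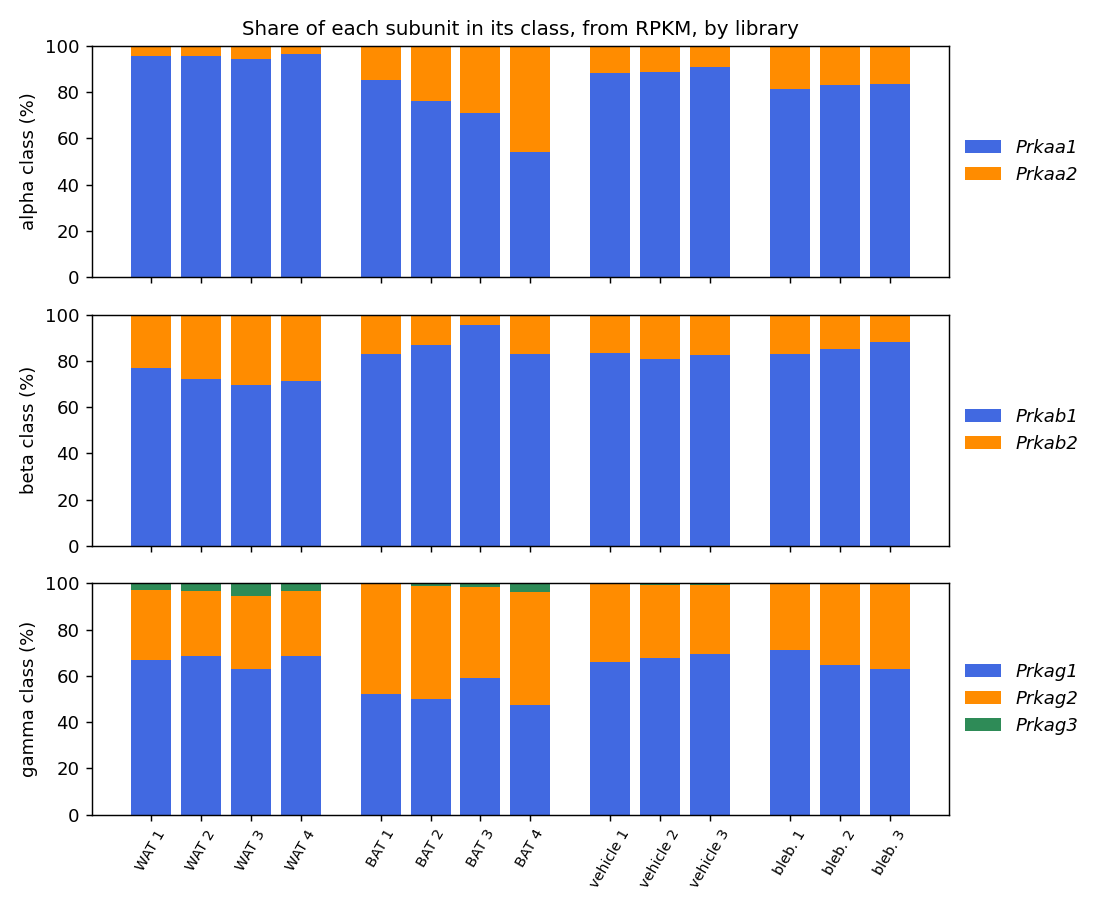
Share of each gene in the RPKM of its subunit class (percent, 0 to 100) in each of the 14 libraries, with the alpha, beta and gamma classes from top to bottom. The Prkaa2 segment is at most 5.53% in WAT, at least 14.8% in BAT, 9.15 to 11.8% under vehicle and 16.7 to 18.7% under blebbistatin.

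The beta genes differed less clearly. Prkab1, the beta isoform found in most tissues, was at 28.7, 24.2, 18.7 and 22.7 CPM in WAT and at 30.9, 32.1, 64.2 and 57.9 CPM in BAT. The libraries did not overlap, although BAT 1 lay close to WAT 1, and Prkab1 rose by 0.90 (SE 0.25, limma adjusted p 0.006927) in CPM but was lower by -0.57 on the RPKM scale, where it was not called. Prkab2, the beta isoform typical of muscle, was at 18.0, 19.3, 17.2 and 18.9 CPM in WAT and at 13.3, 9.95, 6.42 and 24.7 CPM in BAT. BAT 4 alone lay above the WAT libraries and the other BAT libraries lay below them. The difference of -0.58 (SE 0.32, limma adjusted p 0.1319) did not pass the test, while without BAT 4 it was -0.91 (limma adjusted p 0.008074) and on the RPKM scale it was -1.93 (limma adjusted p 0.000176). As a share of beta subunit RPKM, Prkab2 was 27.5% ± 3.13 (SD, n = 4) in WAT and 12.9% ± 5.89 (SD, n = 4) in BAT, with no overlap. Its BAT shares were 17.1, 13.0, 4.58 and 17.0%, and BAT 3, with 6 Prkab2 reads, was the lowest. The alpha and beta classes thus differed in direction: the muscle-typical member had the larger share of alpha transcripts there and the smaller share of beta transcripts.

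Among the gamma genes both widely expressed members were higher in BAT on the CPM scale. Prkag1 was at 38.5, 45.4, 43.3 and 41.8 CPM in WAT and at 68.3, 75.7, 66.3 and 57.9 CPM in BAT. It rose by 0.66 (SE 0.13, limma adjusted p 0.000936) in CPM, whereas on the RPKM scale it was lower in BAT by -0.82 (limma adjusted p 0.02877). Prkag2, whose human gene is mutated in a cardiac glycogen storage disease, was at 34.1, 35.5, 40.2 and 31.6 CPM in WAT and at 91.9, 106.2, 67.4 and 89.8 CPM in BAT. It rose by 1.30 (SE 0.16, limma adjusted p 1.5e-05), a 2.47-fold higher level. Its RPKM values in tissue are for a shorter transcript, described below, so its CPM and RPKM differ in more than scale. In RPKM Prkag2 was higher by 0.17 and was not called. Neither gene overlapped between the tissues in CPM. The summed gamma level was 38.1 ± 2.89 CPM per kb (SD, n = 4) in WAT and 69.4 ± 7.62 CPM per kb (SD, n = 4) in BAT, without overlap. In RPKM the gamma sum was lower in BAT, at 32.6 ± 4.66 in WAT and 25.4 ± 10.6 in BAT (SD, n = 4 each), and the libraries overlapped.

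Within the gamma class the share of Prkag2 was 30.4, 28.1, 31.5 and 28.4% of RPKM in WAT and 47.4, 48.8, 39.3 and 49.0% in BAT. The groups did not overlap, and BAT 3 was the lowest of its group. Prkag3, the gamma isoform of skeletal muscle, was at 2.77, 3.64, 6.59 and 3.25 CPM in WAT and at 0.858, 3.32, 3.21 and 7.81 CPM in BAT. These values rest on 161 reads in the 4 WAT libraries and 23 in the 4 BAT libraries and overlapped widely. The difference was -0.29 (SE 0.50, limma adjusted p 0.6234) and its sign turned to 0.14 without BAT 1, while on the RPKM scale it was -1.54 and was called (limma adjusted p 0.002181). BAT 4 had the highest Prkag3 level, as it had for Prkaa2 and Prkab2.

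In RPKM the order of the subunits in WAT was Prkag1, Prkaa1, Prkag2, Prkab1, Prkab2, Prkag3 and Prkaa2, with means of 21.8, 11.9, 9.67, 9.55, 3.60, 1.22 and 0.555. Prkaa1 and Prkag2, and Prkag2 and Prkab1, were neighbours whose library ranges overlapped. Prkaa2 was the lowest of the 7 in all 4 WAT libraries. In BAT the order was Prkag1, Prkag2, Prkab1, Prkaa1, Prkaa2, Prkab2 and Prkag3, with means of 13.0, 12.0, 6.46, 3.08, 1.18, 1.03 and 0.396. There the ranges of every neighbouring pair overlapped except those of Prkab1 and Prkaa1. Prkaa2 lay below Prkaa1 in all 4 BAT libraries and above Prkab2 in 3 of 4.

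The Prkag2 values of the tissue tables came from different transcripts, and this difference carried a finding of its own, chosen after the values were seen. In the scaled counts the gene is represented by NM_145401, a long transcript with an exon length of 3322 bases, and in the tissue RPKM table by NM_001170556, a short transcript of 2244 bases that starts 192133 bases downstream (mm9, chromosome 5, minus strand, with the short transcript at 24368553 to 24414327). The short transcript lacks the first exons of the long one and keeps its 3′ exons. In the GENCODE M21 models of GRCm38 the long transcript has 16 exons and 3331 bases and the short one has 12 exons and 2205 bases, of which 2128 are shared. The shared part is 63.9% of the long transcript, and 77 bases belong to the short one alone. RefSeq promoter windows, the 250 bases before each start (GRCm38.p6, minus strand), are shown for the long start, for a start between them and for the short start. They are shown because reads on and outside the short transcript, described below, differed between the tissues. Those reads were not assigned to a start. Capitals mark CpG dinucleotides.
Distal start of the long transcript, chr5:25100643-25100892: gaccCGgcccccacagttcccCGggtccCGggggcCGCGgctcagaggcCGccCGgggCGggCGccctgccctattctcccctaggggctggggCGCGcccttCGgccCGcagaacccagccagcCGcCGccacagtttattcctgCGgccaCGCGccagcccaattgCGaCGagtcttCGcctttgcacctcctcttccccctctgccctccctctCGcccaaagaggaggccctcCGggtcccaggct
Middle start, chr5:24995754-24996003: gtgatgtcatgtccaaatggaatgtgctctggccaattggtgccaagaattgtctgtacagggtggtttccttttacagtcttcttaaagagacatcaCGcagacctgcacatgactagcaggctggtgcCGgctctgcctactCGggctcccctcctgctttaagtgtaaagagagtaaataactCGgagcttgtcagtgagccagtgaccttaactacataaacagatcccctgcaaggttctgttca
Proximal start of the short transcript, chr5:24908510-24908759: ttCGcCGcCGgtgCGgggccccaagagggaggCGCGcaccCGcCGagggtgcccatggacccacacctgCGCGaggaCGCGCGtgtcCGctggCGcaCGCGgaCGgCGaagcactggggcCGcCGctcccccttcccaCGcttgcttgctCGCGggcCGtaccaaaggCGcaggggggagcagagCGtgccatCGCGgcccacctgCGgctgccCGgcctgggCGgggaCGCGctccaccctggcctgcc

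The distal and proximal windows were rich in CpG, with 23 and 34 dinucleotides and a GC content of 73.2% and 77.2%. The middle window, 104889 bases from the distal start, held 4 CpG dinucleotides at 48.4% GC, against a median of 6 and 52.4% over 32851 RefSeq promoter windows of the same length. The motifs GGAATG (the core bound by TEAD factors), TATAAA (the TATA box) and CACGTG (an E-box) were searched on both strands. They occurred in 12.6%, 12.4% and 6.02% of all windows. In the 3 Prkag2 windows the single match was GGAATG in the middle window, 227 bases before its start, and no window of the other 6 members held a match. The window of Prkaa2 on chromosome 4 had 24 CpG dinucleotides at 70.0% GC, and that of Prkaa1 on chromosome 15 had 45 at 85.2% GC.

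Reads on the short transcript were recovered from the RPKM table and set against reads on the long transcript. They amounted to 411 against 578, 239 against 332, 218 against 293 and 236 against 311 in WAT 1 to 4, and to 199 against 214, 185 against 192, 57 against 63 and 127 against 138 in BAT 1 to 4. As a percentage of the long-transcript reads, the short-transcript reads were 71.1, 72.0, 74.4 and 75.9% in WAT and 93.0, 96.4, 90.5 and 92.0% in BAT. The groups did not overlap. The means were 73.3% ± 2.19 in WAT and 93.0% ± 2.48 in BAT (SD, n = 4 each), given without a test because the measure was chosen after its values were seen. In BAT 3, the library with the fewest reads, the exact Clopper-Pearson 95% interval was 80.4 to 96.4%, which covers counting error only. Reads outside the short transcript, 75 to 167 per WAT library and 6 to 15 per BAT library, gave WAT levels of 7.61 to 10.3 CPM and BAT levels of 3.87 to 7.16 CPM. Reads on the short transcript gave WAT levels of 24.0 to 29.9 CPM and BAT levels of 61.0 to 102.3 CPM. The higher Prkag2 level of BAT thus lay in the exons of the short transcript. Of the 2205 bases of its model, 2128 are shared with the long one. These reads therefore cannot be assigned to either transcript.

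The same ratio was formed for 837 genes whose RPKM row used a shorter transcript with the same 3′ end. They had at least 50 reads in every tissue library and no ratio above 150%. How much of the long transcript the short one covers was not determined for them. Their room to differ may therefore be unlike that of Prkag2. Their median difference, BAT minus WAT, was 0.38 percentage points, with quartiles of 0.03 and 1.61. The ratio was higher in every BAT library than in every WAT library for 25.1% of these genes and lower in every BAT library for 2.51%, and Prkag2, at 19.6 percentage points, had the fourth largest difference. The antisense gene Prkag2os1 lies within the span of Prkag2 but shares no exon bases with either model, and it had 9 reads in WAT and 40 in BAT. These are raw counts at unlike depth, with 6859404 to 16091372 reads in genes per WAT library and 1014959 to 2335058 per BAT library. The remaining 6 members had the same transcript in both tables and gave no such ratio. The causes of the difference, RNA quality among them, were not tested, and the cell tables list the long transcript in both files.

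**Figure D3:**
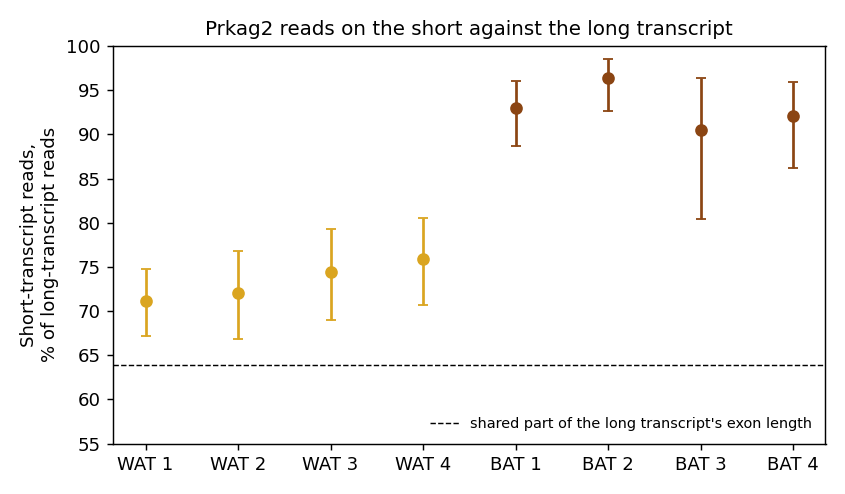
Reads on the short Prkag2 transcript as a percentage of reads on the long transcript in the 8 tissue libraries, with exact 95% intervals and an axis that starts at 55%. The dashed line is the shared part of the long transcript, 63.9% of its exon length. WAT lies at 71.1 to 75.9% and BAT at 90.5 to 96.4%.

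In the brown fat cell line, blebbistatin was compared with vehicle. Among 12808 genes tested, 0.133% were called higher and 0.734% lower under blebbistatin (limma, adjusted p under 0.05). The same fit gave the log2 differences and SEs of 6 of the 7 subunits, since Prkag3 had too few reads to enter it. Brown fat markers summed to 159 to 361 CPM under vehicle and 185 to 245 CPM under blebbistatin, far below those of BAT, and Ucp1 was at 67.3 ± 50.2 and 10.8 ± 3.17 CPM (SD, n = 3 each). The means of Dio2, Cox7a1 and Prdm16 were also lower under blebbistatin, while those of Elovl3, Ppargc1a, Cidea and Cox8b were higher. Of these 8 markers 0 were called. The sum of 8 fibroblast and preadipocyte markers was 6820 to 11500 CPM under vehicle and 5490 to 6070 CPM under blebbistatin. The muscle creatine kinase gene Ckm and the macrophage gene Adgre1 had 0 reads in all 6 libraries, and the 14 skeletal muscle markers summed to 13.4 to 42.2 CPM under vehicle and 7.22 to 10.4 CPM under blebbistatin. Among the muscle markers Mb, the myoglobin gene, was at 15.6 ± 16.7 CPM under vehicle and 2.39 ± 0.794 CPM under blebbistatin (SD, n = 3 each). General adipocyte markers summed to 5530 to 8870 CPM under vehicle and 5010 to 7480 CPM under blebbistatin. The part of the Ucp1, muscle and fibroblast marker differences in the subunit values was not tested.

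Prkaa2 was at 23.3, 18.2 and 15.5 CPM under vehicle and at 41.1, 37.7 and 45.7 CPM under blebbistatin. The groups did not overlap, and the difference was 1.12 (SE 0.16), a 2.17-fold higher level. Over all alternatives it ranged from 0.99 to 1.27 on the log2 scale. The family was chosen by this difference, and the alternatives refit the same libraries. Neither the gap nor the range is therefore support for it. The Prkaa2 values rest on 165 to 256 reads per vehicle library and 493 to 530 per blebbistatin library. Prkaa1 was at 99.3, 82.6 and 87.5 CPM under vehicle and at 101.1, 106.1 and 129.6 CPM under blebbistatin. Its groups were separated only by the small gap between vehicle 1 and blebbistatin 1, and the difference was 0.32 (SE 0.13).

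**Figure D4:**
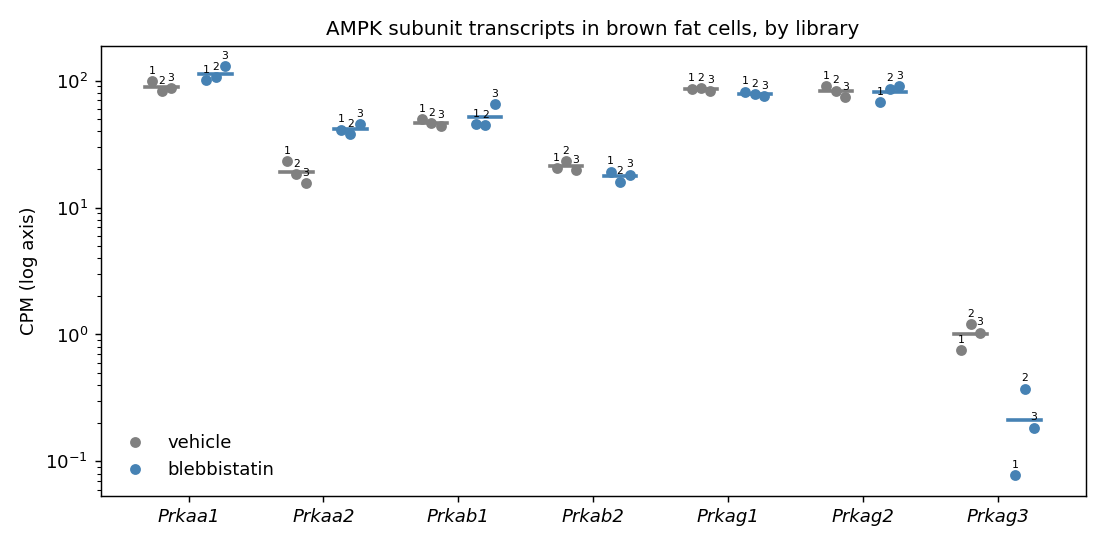
CPM of the 7 subunit genes on a log axis in the 3 vehicle and 3 blebbistatin libraries of the brown fat cell line. Points are libraries, numbered by replicate, and lines are group means. The Prkaa2 points lie at 15.5 to 23.3 CPM under vehicle and at 37.7 to 45.7 CPM under blebbistatin.

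The share of Prkaa2 in alpha subunit RPKM was 11.8, 11.1 and 9.15% under vehicle and 18.7, 16.8 and 16.7% under blebbistatin. In the cells the summed alpha level was also higher, at 21.7 ± 2.25 CPM per kb (SD, n = 3) under vehicle and 29.2 ± 3.68 CPM per kb (SD, n = 3) under blebbistatin, without overlap. Prkaa1 accounted for more than 80% of alpha subunit RPKM in every cell library, the lowest being 81.3%. In CPM, Prkaa2 in the blebbistatin libraries and in 2 of the 3 vehicle libraries lay within the range of the BAT libraries, and its share under blebbistatin, 16.7 to 18.7%, lay between those of BAT 1 and BAT 2. Tissue and cells were scaled separately and were not tested against each other.

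The beta subunits were also described without a test. Prkab1 was at 49.8, 46.3 and 44.3 CPM under vehicle and at 45.3, 44.8 and 65.0 CPM under blebbistatin, where blebbistatin 3 alone stood above the vehicle libraries. The difference of 0.12 (SE 0.16) was -0.06 without that library. Prkab2 was at 20.5, 23.1 and 19.7 CPM under vehicle and at 19.2, 16.0 and 18.1 CPM under blebbistatin, a difference of -0.24 (SE 0.13) with groups that just did not overlap.

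Prkag1 was at 86.4, 86.8 and 83.5 CPM under vehicle and at 82.0, 78.5 and 75.2 CPM under blebbistatin, a difference of -0.12 (SE 0.09). Prkag2 was at 90.3, 83.6 and 73.7 CPM under vehicle and at 68.1, 86.7 and 90.2 CPM under blebbistatin. Its groups overlapped throughout, and the difference of -0.02 (SE 0.14) took either sign over the alternatives. Prkag3 had 8, 17 and 11 reads under vehicle and 1, 5 and 2 under blebbistatin, too few for the fit. Its level was 1.00 ± 0.230 CPM under vehicle and 0.212 ± 0.150 CPM under blebbistatin (SD, n = 3 each), without overlap, and the authors' deposited table gives it a log2 difference of -2.18. The summed level was 27.9 ± 1.46 and 29.5 ± 5.75 CPM per kb for beta and 77.9 ± 3.47 and 73.0 ± 1.83 CPM per kb for gamma under vehicle and blebbistatin (SD, n = 3 each), with overlapping groups in both classes.

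By RPKM, Prkag1 was the highest subunit in all 6 cell libraries, with means of 41.0 under vehicle and 38.7 under blebbistatin, and Prkag3 was the lowest, with means of 0.279 and 0.060. Prkaa2 was the last but one under vehicle, below Prkab2 in 3 of 3 libraries with means of 1.79 and 3.87. Under blebbistatin Prkaa2 was above Prkab2 in 3 of 3 libraries with means of 4.03 and 3.34. The ranges did not overlap in either condition. Under blebbistatin Prkab1, Prkag2 and Prkaa1, with means of 20.0, 19.5 and 19.2, could not be ordered beyond their spread.

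Genes around AMPK were followed through lists of 72 genes in all, of which 68 were tested in tissue. In BAT 28 rose, 16 fell and 24 did not pass the test. The rises and falls were 41.2% and 23.5% of those tested, against 29.4% and 33.3% of all genes. The median difference was 0.14 against -0.10 over all genes. On the RPKM scale 8 of the 68 rose and 47 fell, where 6.55% of all genes tested rose and 74.3% fell. The median there was -1.34, against -1.51 over all genes.

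Upstream of the kinase, 4 of 16 tested genes rose and 3 fell (median 0.01). These are 25% and 18.8%, below the 29.4% and 33.3% of all genes. Stradb, a pseudokinase partner of LKB1, went from 26.7 ± 4.96 CPM in WAT to 88.2 ± 14.2 CPM in BAT, a rise of 1.71 (SE 0.17, limma adjusted p 2.9e-06). Flcn, which encodes folliculin, which acts on AMPK together with FNIP proteins, rose by 1.46 (SE 0.18, limma adjusted p 2.0e-05), while Fnip2, a folliculin partner, was at 140.4 ± 13.7 CPM in WAT and 22.4 ± 4.81 CPM in BAT, a change of -2.64 (limma adjusted p 4.9e-08). Sesn2, a stress-induced sestrin, fell by 1.80 (SE 0.30, limma adjusted p 0.000206). Stk11, which encodes LKB1 itself and was added after its values were seen, was at 85.0, 92.4, 87.3 and 91.8 CPM in WAT and at 220.7, 247.1, 257.8 and 247.9 CPM in BAT. It rose by 1.44 (SE 0.12, limma adjusted p 4.8e-07). The scaling weighs on these rises: in RPKM the log2 difference was 0.24 for Stradb, -0.05 for Flcn and -0.0013 for Stk11, and none of the 3 was called. On that scale 0 of the 16 genes rose and 12 fell, where 6.55% of all genes rose and 74.3% fell.

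Among metabolic substrates 12 of 21 genes rose and 6 fell (median 0.53). These are 57.1% and 28.6%, against 29.4% and 33.3% of all genes. Ppargc1a, the coactivator of mitochondrial biogenesis, was at 3.38 ± 1.48 CPM in WAT and 72.0 ± 8.67 CPM in BAT, a rise of 4.30 (SE 0.26, limma adjusted p 4.5e-08). Mlxipl, the glucose-responsive factor ChREBP, rose by 4.01 (SE 0.21, limma adjusted p 1.5e-08). Both rises were called on every scale run. Tbc1d1, a regulator of glucose transporter traffic, fell by 1.28 (SE 0.21, limma adjusted p 0.000172).

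Growth and autophagy substrates held 1 rise, Ulk1, and 4 falls among 10 genes (median -0.23). These are 10% and 40%, against 29.4% and 33.3% of all genes. Ulk1, the kinase that starts autophagy, went from 36.4 ± 3.20 to 66.0 ± 8.88 CPM, a rise of 0.85 (SE 0.14, limma adjusted p 0.00022), but was lower by -0.62 in RPKM, where it was not called. Foxo3, a transcription factor, fell by 2.55 (SE 0.32, limma adjusted p 1.9e-05) and Eef2k, the kinase of elongation factor 2, by 1.19 (SE 0.21, limma adjusted p 0.000275).

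The kinases related to AMPK, most of which LKB1 also activates, split evenly, with 3 of 12 rising and 3 falling (median -0.29). These are 25% each, below the 29.4% and 33.3% of all genes. Snrk rose by 1.24 (SE 0.21, limma adjusted p 0.000246) and Mark3 by 0.81 (SE 0.12, limma adjusted p 7.5e-05), and both were lower in RPKM by -0.23 and -0.66 without a call. Nuak2 fell from 23.2 ± 5.33 to 4.95 ± 1.70 CPM (-2.15, SE 0.27, limma adjusted p 2.0e-05), and Melk from 6.92 ± 1.70 to 1.76 ± 1.41 CPM (-2.02, SE 0.55, limma adjusted p 0.006318).

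The enzymes of adenine nucleotide turnover, which set the AMP level the gamma subunit senses, rose in 8 of 9 cases with no fall (88.9% and 0%, against 29.4% and 33.3% of all genes, median 1.17). On the RPKM scale 3 rose and 3 fell, where 6.55% of all genes tested rose and 74.3% fell. Ak1, an adenylate kinase abundant in muscle, was at 19.1 ± 1.64 CPM in WAT and 214.6 ± 127.6 CPM in BAT, with 404.1 CPM in BAT 4, and rose by 3.30 (SE 0.29, limma adjusted p 1.0e-06). Ampd1, the AMP deaminase of skeletal muscle, had 0 reads in WAT and was at 7.30, 20.5, 5.35 and 124.3 CPM in BAT. Against the floor of 3 reads over the WAT group it was at least 539-fold higher, and at least 151-fold higher without BAT 4. Both genes were highest in the BAT library with 38400 CPM of muscle markers, and the part of muscle RNA in them was not tested.

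**Figure D5:**
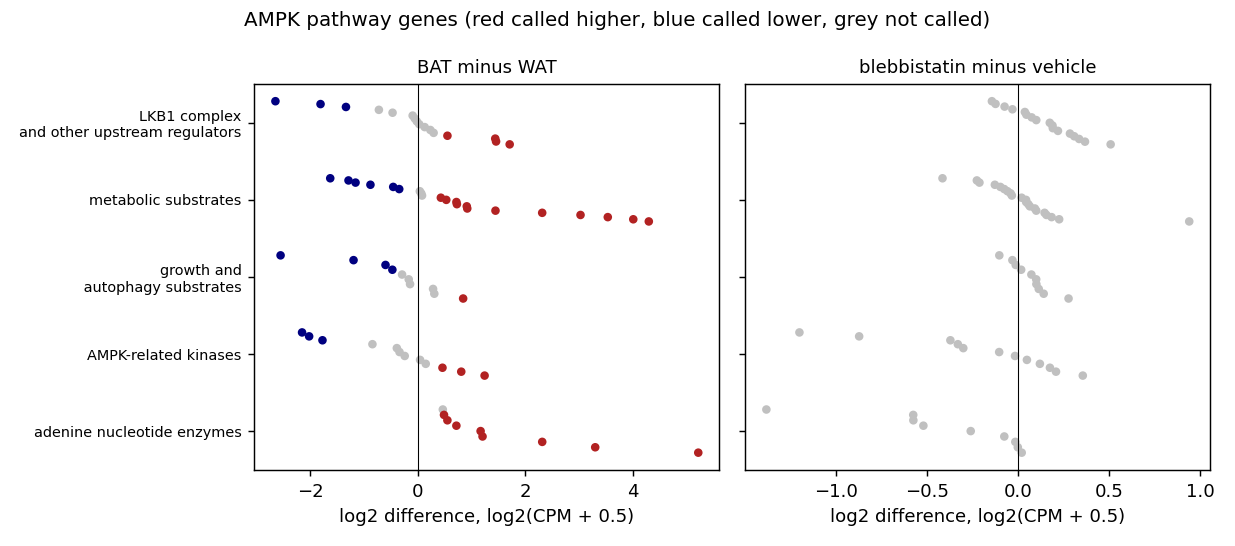
Log2 differences of the genes in the 5 lists around AMPK, BAT minus WAT on the left and blebbistatin minus vehicle on the right, on the log2(CPM + 0.5) scale with separate axes. Each point is a gene, red where called higher, blue where called lower and grey where not called. In the cells no point is called, and on the RPKM scale the tissue counts change from 28 higher and 16 lower to 8 and 47.

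In the cells none of the 69 tested genes of these lists was called by limma or by edgeR's quasi-likelihood test. Of the 69, 8 had an unadjusted p under 0.05 by limma, and 8 by edgeR. This share is below the 12.4% of all genes by limma and the 12.6% by edgeR. The genes are therefore named as a description only. By limma they were Fnip1, Ppm1e and Ppargc1a, which were higher under blebbistatin, and Nuak1, Nuak2, Ak1, Ak4 and Ampd3, which were lower. DESeq2 called the 5 lower genes, where it called 2.8% of all genes tested lower and 1.08% higher. Ppargc1a was at 14.4, 10.5 and 7.63 CPM under vehicle and at 17.4, 15.8 and 31.4 CPM under blebbistatin, a difference of 0.94 (SE 0.30, limma adjusted p 0.2465), with groups that did not overlap. Nuak2 was at 4.06, 4.92 and 6.88 CPM under vehicle and at 2.56, 2.09 and 1.39 CPM under blebbistatin, a difference of -1.20 (SE 0.26, limma adjusted p 0.09902). The median difference over the lists was 0.04, against 0.01 over all genes.

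The genes most like Prkaa2 over the 8 tissue libraries, by Pearson's r of log2(CPM + 0.5), were Slc25a22, Ucp3, Rnf126, Lmod3 and Mettl22, at r of 0.99 each. These points share the tissue difference, and 1431 of 11419 genes ranked had an r over 0.9 with Prkaa2. Slc25a22 is a mitochondrial glutamate carrier, Ucp3 a mitochondrial carrier of muscle and brown fat, and Lmod3 a leiomodin of muscle thin filaments. Over the same libraries Prkaa1 stood at r = -0.92 to Prkaa2, and the genes most like Prkaa1 were Ube2e1, Cltb, Rpap3, Commd7 and Npat, at r of 0.98 to 0.99. Over the 6 cell libraries Prkaa1 and Prkaa2 stood at r = 0.86, over points that share the difference by which Prkaa2 was chosen. There Traf6, Peli2, Rsad1 and Tfdp2 were among the genes most like Prkaa2, at r of 0.99 to 1.00, among 288 of 10863 genes over 0.9. Gm10336, Ift81, Dcaf6, Smim10l1 and Ubxn2b were most like Prkaa1 in the cells, at r of 0.99 to 1.00, among 422 genes over 0.9.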

How the data were processed

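The tools were STAR, HOMER and edgeR and the genome build was mm9, per the submitters' processing notes, with versions not given in the sources used here. Tissue and cells each have a table of signal per gene that the authors deposited, which holds counts scaled by 1 factor per library, together with the authors' log2 fold changes and p-values, and a table of RPKM. The library kit keeps the strand, per the labels' protocols, and whether counting used it is not given. Read counts were recovered from the deposited signal, since 100% of the values of up to 1000 reads lay no more than 0.1 from a whole number. Other libraries are named in a header of the cell RPKM values and were not analysed here.

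CPM was formed from the scaled counts, the gene total and TMM factors. The main test was limma 3.58.1 (trend, robust) on log2(CPM + 0.5), for genes passing filterByExpr of edgeR 4.0.16 (minimum count 10, minimum total 15) on the recovered reads, with Benjamini-Hochberg adjustment and a threshold of 0.05. Scaled counts, not counts, were deposited, so this replaced a count test. edgeR's quasi-likelihood test, DESeq2 1.42.0, log2(RPKM + 0.1) with and without centring, no TMM, no filter, other pseudocounts, a replicate block and leaving out each library were alternatives (R 4.3.3). Shares within a class are from RPKM, with no test.

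The members and gene lists were chosen with earlier results of these data known. Named genes were the 7 subunits, the largest called rises and falls per list with a mean of at least 5 CPM in a group, and the 5 genes most like Prkaa1 and Prkaa2; exceptions are stated, and some genes that the rule names are not reported here. Marker lists are given as sums over their genes. Promoter sequences are from RefSeq, for all 7 members.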

Additional observations from a re-analysis of the deposited data

Results flagged for a closer look

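The share of Prkag2 in gamma subunit RPKM was 39.3% in BAT 3, far below the 47.4 to 49.0% of the other 3 BAT libraries. The gap to the nearest library was 0.836 of the range of the group, above the 95% critical value of Dixon's test for 4 samples. BAT 3 was the BAT library with the fewest reads in genes, 1014959, and with 63 reads on Prkag2. 22 groups of values were tested in this way, and chance flags about 1 in 20.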

How the results depend on the processing

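The 5 subunit calls between the tissues kept their direction and side of the threshold under all 17 alternatives, apart from those on the RPKM scale, where Prkag1 was -0.82 and still called, and Prkab1 was -0.57 and Prkag2 0.17, neither called. The tissue RPKM values of Prkag2 are for its short transcript, so its value there reflects more than the scale. The uncalled Prkag3 was -1.54 and called on RPKM, was 0.034 on centred RPKM, ranged from -0.70 to 0.14 when a BAT library was left out and did not enter the test when a WAT library was. Rises were 46.9% of the tissue calls, but 8.11% on RPKM and 38.9% without TMM. Within the gamma class the share of Prkag2 was 27.9% in WAT and 38.4% in BAT from CPM per length of the long transcript.

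In the cells 111 genes were called, against 497 with DESeq2, 30 on RPKM, 73 without TMM and 13 to 321 when a library was left out. The extremes of 13 and 321 were without vehicle 2 and vehicle 1. Rises were 15.3% of these calls, and from 0% (without vehicle 2, and with the replicate block) to 27.8% (DESeq2) over the alternatives, with 9.21% on centred RPKM and 23.3% without TMM. Of the pathway genes, 0 were called, 5 with DESeq2 and 0 to 2 when a library was left out. Prkab1 ranged from -0.063 to 0.21 and Prkag2 from -0.11 to 0.10 when a library was left out, and Prkag2 was 0.014 on RPKM and 0.041 without TMM. The causes were not tested.

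Whether replicate numbers pair the libraries could not be settled. Same-numbered deviations correlated at -0.037 to 0.073 in tissue and at -0.49, 0.318 and -0.258 in the cells. So few libraries per group cannot exclude pairing. With the replicate block, 30 genes were called in the cells, 0 higher and 30 lower, and the 5 subunit calls of the tissues were kept. Depth limits Prkag3 most, with 23 reads in BAT and 8 under blebbistatin.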
